A study of Homo sapiens with 12 samples.

Results

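The genes described here were 45 immediate early and short-lived mRNAs, measured on exon arrays in RNA from the cytoplasm of U2OS, a human osteosarcoma line. The members were the probe sets (short groups of array probes within a gene) whose only gene symbol was one of a list of 45 symbols, out of 19488 genes with such a probe set. They comprised 548 of 357604 single-symbol probe sets. In all, 43 members were among the 16883 genes tested; MYC, with 2 probe sets above the filter on dim signal, and DUSP6, with 1, were not. All cells, controls included, stably carried a doxycycline-inducible K294A, which is a catalytically inactive capping enzyme kept in the cytoplasm. Induced cells had received doxycycline at 1 ug/ml for 24 h and uninduced cells had not, and samples of both kinds were or were not treated in vitro with Xrn1, a 5′ to 3′ exonuclease that digests uncapped RNA bearing a 5′ monophosphate. The 4 groups of 3 arrays were uninduced untreated, uninduced Xrn1, induced untreated and induced Xrn1. The labels call the 3 arrays of a group biological replicates without naming separate cultures, so each p rests on the spread between these samples only. In the main fit that spread was 1 common SD (0.418), shared by all genes and all 4 groups, and not the spread of the gene itself. Values with each gene's own spread are given where stated. They do not say whether the line was 1 clone. The study asked which mRNAs are re-capped in the cytoplasm, through their sensitivity to Xrn1 when re-capping is blocked.

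Immediate early genes are transcribed within minutes of a growth factor, serum or stress signal, without new protein synthesis. Kinases of the MAP kinase cascade activate factors such as SRF, its partners and CREB, which bind at these promoters, and many of the products are transcription factors that pass the signal on. Many of their mRNAs carry AU-rich elements in the 3′ untranslated region, which recruit proteins of the ZFP36 family and the deadenylases, so that the transcripts are decapped and removed quickly. Other members encode the phosphatases and inhibitors that switch the signal off again.

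Promoters of 5 members are shown: JUND, JUNB and FOSB rose after Xrn1 in induced cells, and ID1 and SGK1 fell after Xrn1 in uninduced and induced cells, respectively. They are the 250 bases upstream of the RefSeq start on GRCh38.p14, written 5′ to 3′ in the direction of transcription. Capitals mark TATAAA or TGACG, the core of the CREB site, on either strand. JUND lies on the minus strand (chr19:18281623-18281872), JUNB on the plus strand (chr19:12791236-12791485), FOSB on the plus strand (chr19:45467746-45467995), ID1 on the plus strand (chr20:31605039-31605288) and SGK1 on the minus strand (chr6:134318113-134318362).
JUND: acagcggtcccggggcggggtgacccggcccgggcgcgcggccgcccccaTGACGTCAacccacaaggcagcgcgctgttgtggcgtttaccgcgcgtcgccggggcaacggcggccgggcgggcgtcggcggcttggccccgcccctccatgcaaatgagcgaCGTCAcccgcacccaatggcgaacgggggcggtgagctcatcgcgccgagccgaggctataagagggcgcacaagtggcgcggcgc
JUNB: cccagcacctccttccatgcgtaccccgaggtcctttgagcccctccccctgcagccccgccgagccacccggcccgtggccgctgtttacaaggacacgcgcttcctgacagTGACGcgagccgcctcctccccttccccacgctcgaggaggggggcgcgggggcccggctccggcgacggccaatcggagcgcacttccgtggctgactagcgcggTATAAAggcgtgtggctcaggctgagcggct
FOSB: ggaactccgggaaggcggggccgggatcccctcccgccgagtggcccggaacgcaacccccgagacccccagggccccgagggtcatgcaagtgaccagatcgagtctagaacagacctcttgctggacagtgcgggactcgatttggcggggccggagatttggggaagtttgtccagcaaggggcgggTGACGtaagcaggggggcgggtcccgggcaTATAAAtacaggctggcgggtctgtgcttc
ID1: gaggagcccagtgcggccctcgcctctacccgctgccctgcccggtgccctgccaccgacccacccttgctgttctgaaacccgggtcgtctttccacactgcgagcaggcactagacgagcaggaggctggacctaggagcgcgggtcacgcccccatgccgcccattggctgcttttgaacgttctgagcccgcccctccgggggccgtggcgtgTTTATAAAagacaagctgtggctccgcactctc
SGK1: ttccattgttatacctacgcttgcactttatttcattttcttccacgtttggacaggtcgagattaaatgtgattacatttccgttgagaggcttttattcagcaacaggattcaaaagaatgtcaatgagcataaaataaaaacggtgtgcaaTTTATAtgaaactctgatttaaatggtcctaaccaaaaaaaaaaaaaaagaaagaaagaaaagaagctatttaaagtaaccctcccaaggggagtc

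In these windows JUNB and FOSB each held 1 TATAAA and 1 TGACG. JUND held TGACG in 3 places, of which 2 overlap in the palindrome TGACGTCA, the full CREB site. ID1 held TATAAA on both strands in overlap, and SGK1 held it on the opposite strand. EGR2 and ZFP36, which also rose in induced cells, held neither set of letters. Over the 35 members with an entry among the 35116 RefSeq promoters, TATAAA occurred in 10 (28.6%, against 10.7% of all promoters). TGACG occurred in 20 members (57.1%, against 21.2%) and TGACGTCA, which contains it, in JUND and DUSP1 (5.71%, against 1.65%). The AP-1 site TGANTCA occurred in IL8 alone (2.86%, against 6.57%), and the CArG box, the binding site of SRF, in EGR1 alone (2.86%, against 1.16%). The EGR site GCGNGGGCG occurred in 6 members (17.1%, against 8.41%) and GGGCGG, which binds SP1, in 20 (57.1%, against 42.6%). All motifs were searched on both strands. The GC content of the members' windows had a median of 65.6%, against 58% over all promoters, and ranged from 33.6% for SGK1 to 80% for KLF2. Across 34 members, which share arrays and are not independent replicates, GC content and the Xrn1 change correlated at r = -0.05 (Spearman rho -0.06) in uninduced cells and r = 0.28 (rho 0.22) in induced cells.

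Levels are log2 values of a gene's probe sets, and every change is a difference of log2 levels. Olfactory receptor genes, which these cells are not known to use, gave the background. Over 283 of them the median level was 1.75 and the 95th percentile 2.46. Above that percentile 35 members counted as expressed and 10 as silent: EGR3, KLF4, NR4A2, NR4A3, DUSP4, DUSP6, TNFAIP3, IL6, PTGS2 and IL8 (now named CXCL8). Of 18674 genes with at least 3 single-symbol probe sets, 12725 lay above the same cut, so the members' count is not read as particular to them. NR4A2, at 2.460, and TNFAIP3, at 2.462, lay just below that cut of 2.463, and ATF3, at 2.576, lay just above. With the highest olfactory receptor gene, at 4.54, as the cut, 9 members counted as expressed: EGR1, JUND, FOSL2, ID1, IER3, IER5, ZFP36L1, ZFP36L2 and MCL1. Of the genes tested, 34 members were expressed and 9 silent. This split used all of a gene's single-symbol probe sets. Levels on single arrays and changes used, unless stated, only those above the filter on dim signal, so silent members can read above the cut there.

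The arrays differed within groups. The mean of the 34 expressed members was 4.40, 3.86 and 4.50 on uninduced untreated replicates 1 to 3, 3.86, 3.88 and 4.03 on uninduced Xrn1, 3.57, 3.77 and 4.32 on induced untreated, and 4.29, 4.07 and 4.34 on induced Xrn1. Within each group 1 or 2 arrays held the lowest value of most of the 34: uninduced untreated replicate 2 for 22, uninduced Xrn1 replicates 1 and 2 for 16 and 15, induced untreated replicates 1 and 2 for 19 and 12, and induced Xrn1 replicate 2 for 23. The median of all genes tested varied in a similar way. In the same order of groups it was 3.61, 3.33 and 3.82, then 3.22, 3.18 and 3.28, then 3.08, 3.19 and 3.68, and last 3.47, 3.36 and 3.46. These array differences are therefore not read as particular to the members. On probe sets above the filter, the silent members averaged 2.22 to 2.90 over the 12 arrays and the tested olfactory receptor genes 2.23 to 2.84. The 20 abundant long-lived mRNAs, such as those of glycolytic enzymes, actin and tubulin, averaged 7.56 to 8.36 on untreated arrays and 6.09 to 6.88 on Xrn1 arrays. The median SD of the tested members within a group was 0.52 for induced untreated (0.51 over all genes), 0.39 for uninduced untreated (0.35), 0.32 for uninduced Xrn1 (0.33) and 0.17 for induced Xrn1 (0.16). The U2OS markers had mean levels of 8.36 for LGALS1, 6.72 for VIM, 5.86 for FN1, 4.73 for CD44 and 3.46 for RUNX2. Of these, RUNX2 lay within the range of the markers of other cell types. The 10 tested markers of other cell types lay between 2.44 and 4.16, their mean ranged from 2.65 to 3.23 on uninduced Xrn1 arrays, 2.85 to 3.29 on uninduced untreated, 2.60 to 3.28 on induced untreated and 3.22 to 3.38 on induced Xrn1, and their part in the results was not tested. In these bulk samples fewer cells expressing a gene and less RNA per cell cannot be told apart.

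**Figure D1:**
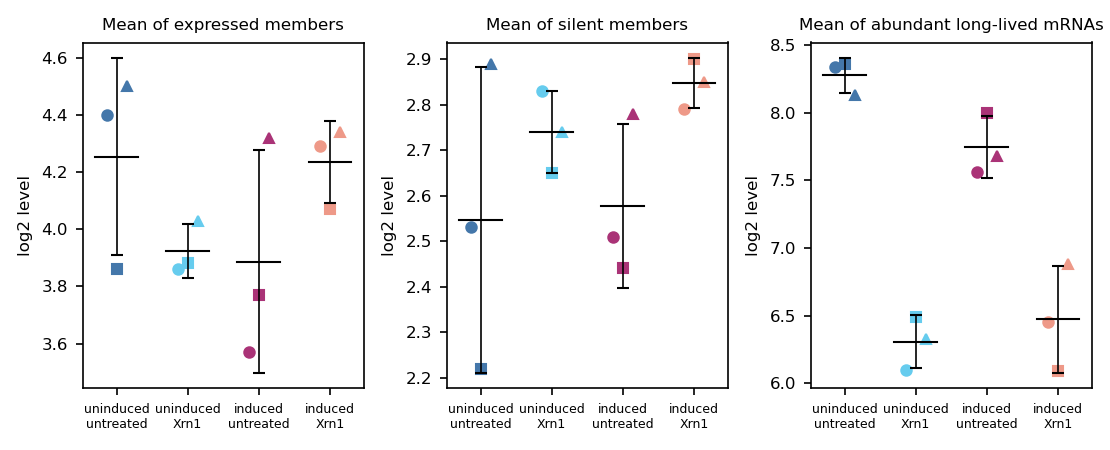
Mean log2 level on each array of the expressed members, the silent members and 20 abundant long-lived mRNAs, in the 4 groups; each point is 1 array (circle, square and triangle for replicates 1, 2 and 3), with the group mean and SD in black. The long-lived mRNAs were lower on every Xrn1 array than on any untreated array, while the expressed members' ranges overlapped between untreated and Xrn1 arrays, and induced untreated replicates 1 and 2 had their lowest values (3.57 and 3.77).

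In uninduced cells the levels of KLF10, MCL1, ZFP36L1, ID1, BTG1 and KLF6 were lower after Xrn1 and that of CXCL1 was higher. Array distributions had been made alike in processing, so every rise or fall is relative to the other genes. These 6 falls and 1 rise among 43 members compare with 31.8% of all genes lower and 7.24% higher (limma, Benjamini-Hochberg adjusted p under 0.05, common standard error 0.34). The median change was -0.22 for the members, -0.34 for the 34 expressed and 0.19 for the 9 silent ones, against -0.27 for all genes. The values of Xrn1 and untreated arrays did not overlap for 10 members that were lower (33.6% of all genes) and 2 that were higher (11.2%). None of the silent members passed in limma, and 2 had an unadjusted p under 0.05, as did 7980 of all 16883 genes. When each gene kept its own spread 1 silent member, IL6, passed, in a fit in which 6 members passed (32.1% of all genes). The balance depended on how arrays were scaled. When each array was centred on its median gene, the median change of all genes moved from -0.27 to 0.09, the split of all genes became 23.3% higher and 25.4% lower, and that of the members 7 higher and 5 lower; cyclic loess gave 21.9% each way over all genes, 11 members higher and 2 lower. Without uninduced Xrn1 replicate 2, 4 members passed in place of 7.

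In induced cells most of the called members went up after Xrn1. EGR2, JUND, FOSB, JUNB, ZFP36, NR4A1, KLF2, SOCS3, IER2 and FOSL1 rose, as did the silent DUSP4 and KLF4, and MCL1, SGK1 and KLF10 fell. These 12 rises and 3 falls of 43 compare with 21.6% of all genes higher and 17.8% lower in limma. The median was 0.32 for the members, against 0.10 for all genes, and centring or cyclic loess left 12 and 15 members higher and 5 and 4 lower. Values did not overlap for 12 members that were higher (28.3% of all genes) and 5 that were lower (22.6%). The counts changed with single arrays. Without induced untreated replicate 2 alone, EGR2, JUND, FOSB and JUNB still passed and the other 11 did not. The count was 8 without induced Xrn1 replicate 2 and 7 without induced Xrn1 replicate 3. Of the 10 markers of other cell types, GFAP (1.02), SYP (1.01) and MYH6 (1.01) rose in the same comparison and none fell. Without induced untreated replicates 1 and 2 together, an alternative chosen after seeing the data, 1 induced untreated array remained and was assumed to vary like the other groups. The median change of the expressed members was then 0.01 and no member passed in limma (5 at an unadjusted p under 0.05), but over all genes too only 0.101% passed as higher. With all arrays and each gene's own spread JUND alone passed (8.84% of all genes). In that fit 14 members and 6998 of all 16883 genes had an unadjusted p under 0.05.

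**Figure D2:**
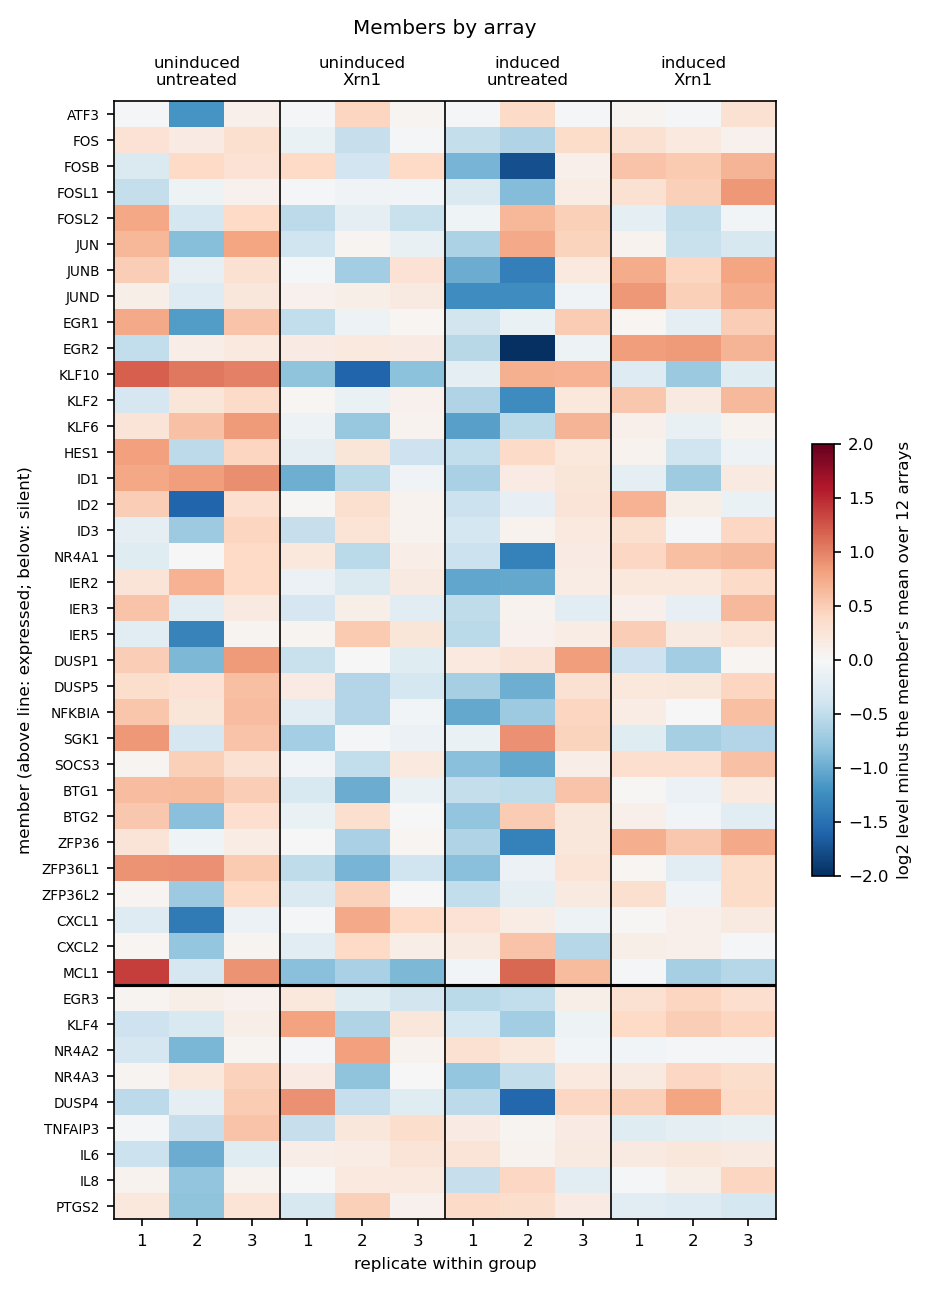
Log2 level of each of the 43 tested members on the 12 arrays, as the difference from that member's mean over all arrays (colour, red higher and blue lower), with expressed members above the black line, silent members below it and replicates 1 to 3 within each group. KLF10 is high on all 3 uninduced untreated arrays, and FOSB, JUNB, JUND, EGR2 and ZFP36 are low on induced untreated replicates 1 and 2 and high on the induced Xrn1 arrays.

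The average of both Xrn1 effects called 6 members higher and 6 lower, against 14.2% and 29.8% of all genes, with a median of 0.19 for the members and 0.05 for all genes. KLF10 (-1.49, adjusted p = 7.94e-09), MCL1 (-1.22), SGK1 (-0.77), ID1 (-0.76), FOSL2 (-0.62) and DUSP1 (-0.58) were lower. EGR2 (0.96), JUND (0.82), FOSB (0.72), DUSP4 (0.62), IER5 (0.59) and KLF4 (0.58) were higher. Without a single array of the following, calls were lost: induced Xrn1 replicate 1 (DUSP1, IER5, KLF4), induced Xrn1 replicate 2 (DUSP1, DUSP4, FOSL2, IER5, KLF4, with 7 members left), induced Xrn1 replicate 3 (IER5, KLF4), induced untreated replicate 1 (IER5), replicate 2 (DUSP4, FOSB, FOSL2, KLF4) or replicate 3 (DUSP1). The same held for uninduced untreated replicate 1 (DUSP1, DUSP4, FOSL2, KLF4), replicate 2 (DUSP4, IER5, KLF4) and replicate 3 (DUSP1, FOSL2), and for uninduced Xrn1 replicate 1 (DUSP1, DUSP4, FOSL2, KLF4), replicate 2 (IER5) and replicate 3 (DUSP1, FOSL2, IER5, KLF4). The changes without these arrays were -0.57 to -0.41 for DUSP1, -0.61 to -0.50 for FOSL2, 0.37 to 0.59 for DUSP4, 0.38 to 0.63 for IER5, 0.42 to 0.59 for KLF4 and 0.50 for FOSB. Cyclic loess turned FOSL2 to 0.43 and ID1 to 0.13, and the member counts became 17 higher and 2 lower, against 27.5% and 26.7% of all genes; centring gave 13 and 5, against 31.8% and 28.9%. With each gene's own spread 5 members passed (32.5% of all genes). KLF10 was the 1 member lower without overlap over both states (11.5% of all genes), and none was higher in that way (2.87%).

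The AP-1 genes encode subunits of the dimeric transcription factor AP-1, with FOS and JUN as its founding partners. Of the 8 members of this role, none passed in uninduced cells (limma, median change -0.18, 0 at an unadjusted p under 0.05 and 0 with each gene's own spread; 7.24% of all genes were higher and 31.8% lower), and 4 rose in induced cells (21.6% of all genes). JUND measured 4.96, 4.59 and 5.08 on the uninduced untreated arrays, 4.93, 4.96 and 5.02 on uninduced Xrn1, 3.61, 3.61 and 4.78 on induced untreated and 5.71, 5.33 and 5.58 on induced Xrn1. Here 2 of the 3 induced untreated arrays lay a full unit below the third, and the induced Xrn1 arrays lay above every other array. JUND, a broadly expressed subunit, rose by 1.54 in induced cells (standard error 0.34, adjusted p = 0.00011) and changed by 0.09 in uninduced cells (adjusted p = 0.86). JUNB measured 4.41, 3.76 and 4.23 on the uninduced untreated arrays, 3.88, 3.23 and 4.21 on uninduced Xrn1, 2.93, 2.56 and 4.12 on induced untreated and 4.66, 4.35 and 4.71 on induced Xrn1. Its induced Xrn1 and induced untreated arrays did not overlap, with untreated replicate 3 closest. JUNB, a subunit that is weaker than JUN as an activator, rose by 1.37 in induced cells (adjusted p = 0.000614). FOSB gave 2.98, 3.67 and 3.56 on the uninduced untreated arrays, 3.67, 2.88 and 3.66 on uninduced Xrn1, 2.34, 1.51 and 3.36 on induced untreated and 3.83, 3.79 and 3.94 on induced Xrn1. The lowest values again came from induced untreated replicates 1 and 2, and the uninduced groups overlapped. FOSB rose by 1.45 in induced cells (adjusted p = 0.000293), against 0.00 in uninduced cells (adjusted p = 0.998).

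FOSL1, a FOS relative without a transactivation domain, rose by 0.89 in induced cells (adjusted p = 0.0277), and the call was lost without induced untreated replicate 2 (0.62) or induced Xrn1 replicates 2 (0.93) or 3 (0.73). FOS ranged from 2.15 to 3.13 over the 12 arrays and did not pass in either state (-0.48 in uninduced and 0.43 in induced cells). JUN did not pass either (-0.37 and -0.42). The related FOSL2 (-0.66 and -0.59) and ATF3 (0.52 and 0.00), a stress-induced repressor, did not pass in either state.

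Against induced untreated replicate 3 alone, the changes in induced cells were 0.76 for JUND, 0.46 for JUNB and 0.49 for FOSB, and with the spread taken from the other groups none passed. With each gene's own spread the adjusted p was 0.0301 for JUND, 0.0633 for JUNB and 0.0641 for FOSB. The probe sets of each gene moved the same way. All 9 of JUND (0.54 to 2.40), all 11 of FOSB (0.95 to 2.44) and all 5 of JUNB (1.09 to 1.80) were higher after Xrn1 in induced cells, and 6, 3 and 1 of them passed among 705699 probe sets.

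On probe sets above the filter on dim signal, EGR and KLF zinc finger factors gave the largest rise and fall after Xrn1 within a state among the 43 tested members. EGR2 measured 3.89, 4.52 and 4.57 on the uninduced untreated arrays, 4.54, 4.58 and 4.54 on uninduced Xrn1, 3.83, 2.30 and 4.28 on induced untreated and 5.22, 5.24 and 5.06 on induced Xrn1. EGR2, a factor of the early growth response family with roles in myelination and lymphocytes, was spread widely within the induced untreated group, and the 3 induced Xrn1 arrays lay above all others. These values rest on the 4 of its 9 probe sets that were above the filter. Over all 9, induced untreated arrays read 2.74, 1.65 and 2.75 and induced Xrn1 arrays 3.30, 3.35 and 3.37. Uninduced untreated replicate 2 then read 3.30 as well. With the filter EGR2 rose by 1.70 in induced cells (standard error 0.34, adjusted p = 1.5e-05, 0.0531 with its own spread). In uninduced cells it changed by 0.22 (adjusted p = 0.645). KLF10 measured 5.48, 5.34 and 5.29 on the uninduced untreated arrays, 3.48, 2.70 and 3.47 on uninduced Xrn1, 4.09, 5.00 and 4.99 on induced untreated and 4.03, 3.55 and 4.04 on induced Xrn1. KLF10, a TGF-beta inducible repressor, was highest on the 3 uninduced untreated arrays, which no array of another group reached. It fell by 2.16 in uninduced cells (adjusted p = 4.56e-09, 0.00165 with its own spread), a position 1.89 below the median gene, and by 0.82 in induced cells (adjusted p = 0.0432). In uninduced cells the fall held without any 1 array (-2.29 to -1.90), and 8 of its 10 probe sets passed, none of them higher. The fall in induced cells was lost without induced untreated replicates 2 (-0.67) or 3 (-0.67), induced Xrn1 replicates 1 (-0.90), 2 (-0.66) or 3 (-0.90), or uninduced Xrn1 replicate 3 (-0.82).

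**Figure D3:**
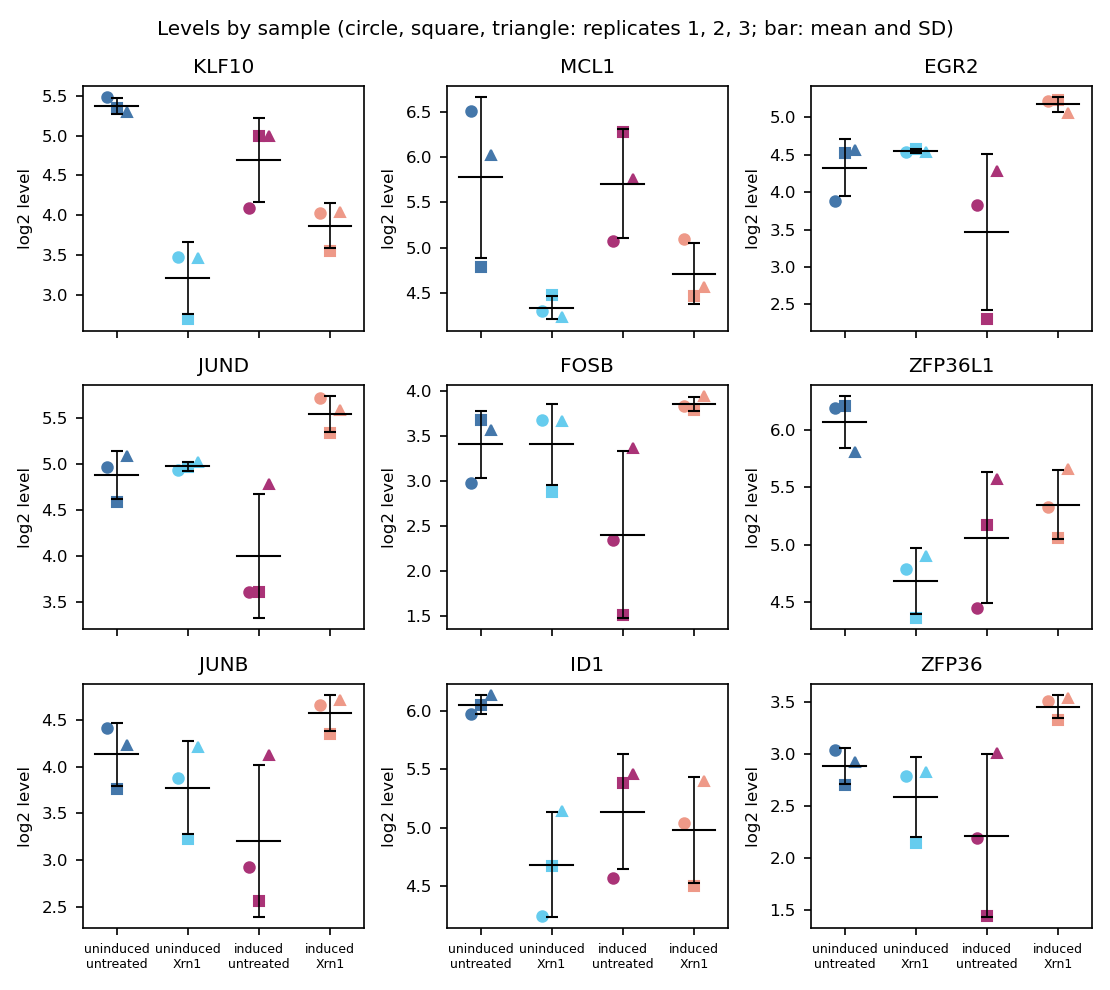
Log2 levels of 9 members on each array of the 4 groups (circle, square and triangle for replicates 1, 2 and 3), with the group mean and SD in black; each panel has its own scale. KLF10 on uninduced untreated arrays (5.29 to 5.48) lies above all its other values, while EGR2 and FOSB have their lowest values, 2.30 and 1.51, on induced untreated replicate 2.

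KLF2 measured 3.79, 4.36 and 4.50 on the uninduced untreated arrays, 4.17, 3.99 and 4.21 on uninduced Xrn1, 3.52, 2.86 and 4.33 on induced untreated and 4.67, 4.31 and 4.78 on induced Xrn1. KLF2, a factor best known from endothelial cells under flow, rose by 1.02 in induced cells (adjusted p = 0.0116) although the groups overlapped by 1 array. The call was lost without induced untreated replicate 2 (0.66) or induced Xrn1 replicates 1 (0.98) or 3 (0.92). KLF6, a broadly expressed factor of the same family, fell by 0.83 in uninduced cells (adjusted p = 0.0412), from 3.76 to 4.34 on untreated arrays to 2.74 to 3.57 after Xrn1. That call was lost without uninduced Xrn1 replicates 1 (-0.91) or 2 (-0.58), uninduced untreated replicates 2 (-0.82) or 3 (-0.69), or any induced Xrn1 array (-0.83), and with the arrays centred (-0.47). EGR1, the textbook serum response gene, did not pass in either state (-0.25 and 0.11), and its lowest array was uninduced untreated replicate 2, at 3.76, against 4.39 to 5.63 on the other 11 arrays. Of the silent factors, KLF4 measured 2.11 to 2.69 on induced untreated and 3.20 to 3.29 on induced Xrn1 arrays and rose by 0.82 (adjusted p = 0.0427), a call lost without any 1 of those 6 arrays except induced untreated replicate 3 (values without them 0.67 to 0.84), or without uninduced Xrn1 replicate 3 (0.82). Without the filter on dim probe sets KLF4 rose by 0.56 in induced cells and did not pass. EGR3 (0.66) did not pass.

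The other transcription factors include the nuclear receptors of the NR4A family, MYC, and HES1 and the ID proteins, which respond to Notch and BMP signals. NR4A1 measured 3.14, 3.40 and 3.78 on the uninduced untreated arrays, 3.59, 2.84 and 3.52 on uninduced Xrn1, 2.95, 2.03 and 3.55 on induced untreated and 3.80, 3.98 and 4.04 on induced Xrn1. NR4A1, an orphan nuclear receptor, had its lowest value on induced untreated replicate 2 and rose by 1.10 in induced cells (adjusted p = 0.00654), with 27 of 28 probe sets positive. Without that replicate the change was 0.69 and did not pass. ID1 measured 5.98, 6.05 and 6.14 on the uninduced untreated arrays, 4.24, 4.67 and 5.14 on uninduced Xrn1, 4.57, 5.38 and 5.46 on induced untreated and 5.04, 4.50 and 5.40 on induced Xrn1. ID1, an inhibitor of basic helix-loop-helix factors, was highest on the uninduced untreated arrays, and its uninduced Xrn1 arrays lay below them without overlap. It fell by 1.37 in uninduced cells (adjusted p = 0.000329, 0.016 with its own spread) and changed by -0.16 in induced cells (adjusted p = 0.757). None of its 8 probe sets was higher in uninduced cells, but with cyclic loess its change there was -0.09 and did not pass. ID2 (0.39 and 0.33 in uninduced and induced cells), ID3 (0.12 and 0.26), HES1 (-0.36 and -0.18), and the silent NR4A2 (0.69 and -0.20) and NR4A3 (-0.45 and 0.66) did not pass. MYC, over all its probe sets, lay between 2.24 and 4.49 on untreated and 2.43 and 3.13 on Xrn1 arrays. In the fit without the filter on dim probe sets its average Xrn1 change was -0.57 (adjusted p = 0.0323), and it passed in neither state alone.

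IER2, IER3 and IER5 are named for their immediate early response, and the DUSP genes encode phosphatases that inactivate MAP kinases. IER2 measured 3.77, 4.21 and 3.91 on the uninduced untreated arrays, 3.39, 3.23 and 3.69 on uninduced Xrn1, 2.47, 2.49 and 3.66 on induced untreated and 3.73, 3.73 and 3.89 on induced Xrn1. IER2, a nuclear protein, was low on induced untreated replicates 1 and 2 and rose by 0.91 in induced cells (adjusted p = 0.0244). The call was lost without any 1 of the induced arrays except untreated replicate 3 (values without them 0.71 to 0.94). IER3, which modulates cell survival (-0.33 and 0.41), and IER5, which regulates heat shock factor (0.77 and 0.42), did not pass in either state. DUSP5 measured 3.85, 3.78 and 4.10 on the uninduced untreated arrays, 3.66, 2.91 and 3.14 on uninduced Xrn1, 2.82, 2.51 and 3.79 on induced untreated and 3.70, 3.72 and 3.92 on induced Xrn1. DUSP5, a nuclear ERK phosphatase, did not pass in either state (-0.67 and 0.74), although its uninduced groups did not overlap. DUSP1, a nuclear phosphatase of the same family, had changes of -0.38 and -0.79 and did not pass. The silent DUSP4 ranged from 1.52 to 4.01 and rose by 1.10 in induced cells (adjusted p = 0.00633), with overlapping groups. These values rest on the 3 of 12 probe sets of DUSP4 above the filter. Its call was lost without induced untreated replicate 2 (0.59) or induced Xrn1 replicate 2 (0.98). DUSP6, a cytoplasmic ERK phosphatase, was fitted only without the filter and passed in no comparison (-0.04 and 0.57).

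The feedback regulators act on other pathways of the same response. SOCS3 read 3.51, 3.94 and 3.77 on the uninduced untreated arrays, 3.40, 2.96 and 3.66 on uninduced Xrn1, 2.62, 2.44 and 3.59 on induced untreated and 3.79, 3.80 and 4.04 on induced Xrn1. SOCS3, which blocks cytokine receptor signalling, rose by 0.99 in induced cells (adjusted p = 0.0137), a call lost without induced untreated replicates 1 (0.86) or 2 (0.77) or induced Xrn1 replicate 3 (0.91). NFKBIA read 4.30, 3.99 and 4.36 on the uninduced untreated arrays, 3.54, 3.15 and 3.69 on uninduced Xrn1, 2.72, 3.02 and 4.18 on induced untreated and 3.89, 3.74 and 4.34 on induced Xrn1. NFKBIA, the inhibitor that holds NF-kB in the cytoplasm, did not pass in either state (-0.76 and 0.68). SGK1 read 4.09, 2.89 and 3.80 on the uninduced untreated arrays, 2.55, 3.19 and 3.12 on uninduced Xrn1, 3.10, 4.15 and 3.67 on induced untreated and 2.99, 2.56 and 2.65 on induced Xrn1. SGK1, a serum and glucocorticoid induced kinase, moved the other way from most of the called members: its induced Xrn1 arrays lay below all induced untreated ones. It fell by 0.91 in induced cells (adjusted p = 0.0244), where 5 of 19 probe sets were lower and none higher among those that passed. That call was lost without induced untreated replicates 2 (-0.66) or 3 (-0.89) or induced Xrn1 replicates 2 (-0.82) or 3 (-0.87). The silent TNFAIP3, a ubiquitin editing inhibitor of NF-kB, did not pass (0.02 and -0.32).

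The members that act in mRNA decay are the AU-rich element binding proteins ZFP36, ZFP36L1 and ZFP36L2 and the deadenylase partners BTG1 and BTG2. ZFP36L1 measured 6.19, 6.21 and 5.81 on the uninduced untreated arrays, 4.79, 4.36 and 4.90 on uninduced Xrn1, 4.45, 5.17 and 5.57 on induced untreated and 5.33, 5.06 and 5.66 on induced Xrn1. ZFP36L1 was thus about a unit or more lower on each uninduced Xrn1 array than on any uninduced untreated array, and the induced groups overlapped. It fell by 1.39 in uninduced cells (adjusted p = 0.000266, 0.0104 with its own spread) and changed by 0.29 in induced cells (adjusted p = 0.54). Of its 15 probe sets 6 were lower in uninduced cells, with changes from -5.25 to 0.23, and cyclic loess reduced the gene's change to -0.07. ZFP36 measured 3.04, 2.70 and 2.93 on the uninduced untreated arrays, 2.79, 2.14 and 2.83 on uninduced Xrn1, 2.19, 1.44 and 3.01 on induced untreated and 3.51, 3.33 and 3.54 on induced Xrn1. ZFP36, or tristetraprolin, had its lowest value on induced untreated replicate 2 and rose by 1.24 in induced cells (adjusted p = 0.00201). Without that replicate the change was 0.86 and did not pass. BTG1 measured 3.93, 3.96 and 3.81 on the uninduced untreated arrays, 3.02, 2.33 and 3.19 on uninduced Xrn1, 2.84, 2.82 and 3.89 on induced untreated and 3.34, 3.20 and 3.51 on induced Xrn1. BTG1, an antiproliferative protein, fell by 1.05 in uninduced cells (adjusted p = 0.00748, 0.038 with its own spread), and without uninduced Xrn1 replicate 2 the change was -0.80 and did not pass. ZFP36L2 (0.15 and 0.38) and BTG2 (0.04 and -0.04) did not pass.

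Among the secreted signals and the prostaglandin synthase, CXCL1, a neutrophil chemokine, rose by 0.98 in uninduced cells (adjusted p = 0.0142, 0.0625 with its own spread). It went from 1.84, 3.00 and 3.15 on untreated arrays to 3.24, 3.66 and 4.02 after Xrn1. The lowest of these values was untreated replicate 2, without which the change was 0.56 and did not pass, and the call was lost too without uninduced Xrn1 replicates 2 (0.79) or 3 (0.96). CXCL2, a related chemokine, did not pass (0.33 and 0.01). IL6, IL8 and PTGS2, the inducible prostaglandin synthase, were silent and did not pass in limma. IL6 measured 1.58 to 2.32 on uninduced untreated arrays and 2.64 to 2.83 on the other 9 arrays. Its change in uninduced cells was 0.74 (adjusted p = 0.0718, and 0.0117 with its own spread).

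MCL1, a short-lived inhibitor of apoptosis, was the 1 survival gene of the list. MCL1 measured 6.51, 4.79 and 6.03 on the uninduced untreated arrays, 4.30, 4.48 and 4.23 on uninduced Xrn1, 5.08, 6.28 and 5.76 on induced untreated and 5.10, 4.47 and 4.57 on induced Xrn1. In uninduced cells untreated replicate 2 lay more than a unit below replicates 1 and 3 but still above every Xrn1 array. MCL1 fell by 1.44 in uninduced cells (adjusted p = 0.000145, 0.0463 with its own spread) and by 1.00 in induced cells (adjusted p = 0.0134), where untreated and Xrn1 arrays overlapped. The fall in induced cells was lost without induced untreated replicates 2 (-0.71) or 3 (-0.97) or induced Xrn1 replicates 2 (-0.88) or 3 (-0.93). With cyclic loess the changes were -0.19 and -0.54 and neither passed.

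**Figure D4:**
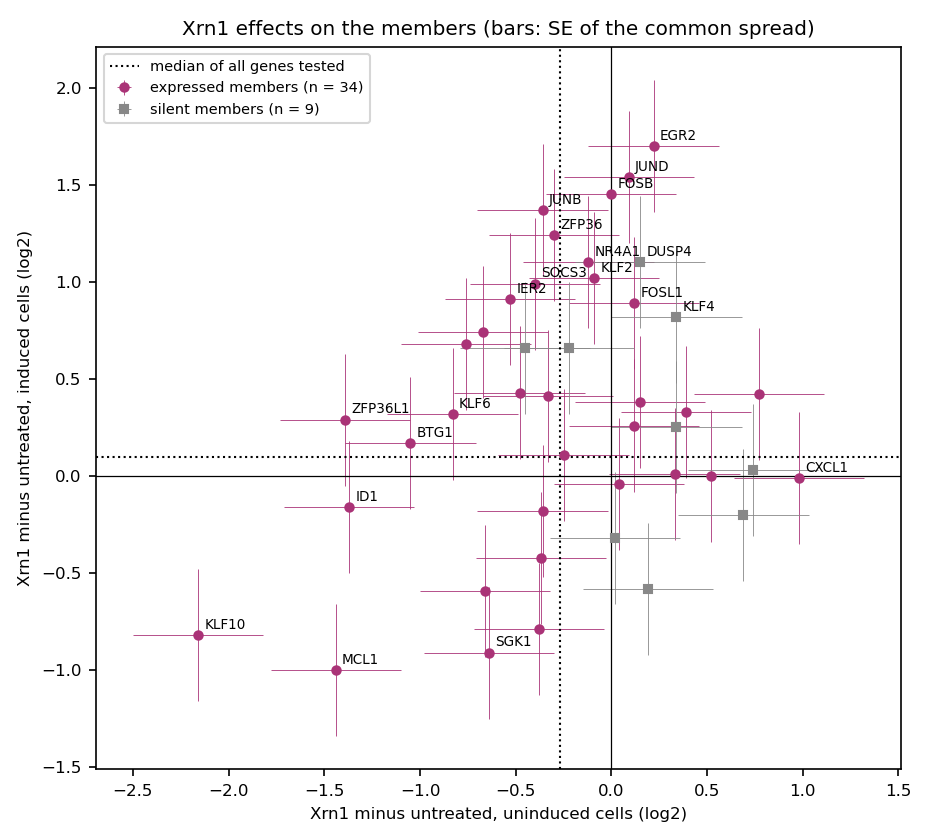
Xrn1 minus untreated change of the 43 tested members (log2) in uninduced cells (horizontal) and induced cells (vertical), with bars of 1 standard error (0.34); circles are expressed and squares silent members, dotted lines mark the medians of all genes (-0.27 and 0.10), and members called in either state are named. KLF10 and MCL1 lie lower left in both states, while EGR2, JUND and FOSB lie near 0 in uninduced cells and above 1.4 in induced cells.

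Whether Xrn1 acted differently with and without induction was tested directly as the difference of both Xrn1 effects. It was positive and passed for 11 of 43 members, against 20.6% of all genes, and negative for none, against 1.23%. The members were JUNB (1.73, adjusted p = 0.0158), ZFP36L1 (1.68, 0.0181), ZFP36 (1.55, 0.0241), EGR2 (1.48, 0.028), FOSB (1.45, 0.0295), NFKBIA (1.44, 0.03), JUND (1.44, 0.03), IER2 (1.44, 0.0301), DUSP5 (1.41, 0.0324), SOCS3 (1.39, 0.0335) and KLF10 (1.34, 0.0379), each with a standard error of 0.48. The ranges of Xrn1-minus-untreated differences were apart for 9 members that were higher and 1 that was lower in induced cells, against 19.5% and 2.42% of all genes. The 11 differences came about in different ways. ZFP36L1 and KLF10 fell in uninduced cells, whereas JUNB, ZFP36, EGR2, FOSB, JUND, IER2 and SOCS3 rose in induced cells, and NFKBIA and DUSP5 passed in neither state. The members' median difference was 0.74, against 0.70 for all genes, and centring the arrays moved these to 0.27 and 0.23. With centring 2 members were higher and 4 lower, against 3.08% and 7.91% of all genes. No member passed with each gene's own spread (15 at an unadjusted p under 0.05, as were 6306 of all 16883 genes). Nor did any with cyclic loess (14) or with the CM number of the sample titles as a block (17, adjusted p of the 11 members 0.0598 to 0.0865). The unadjusted share of all genes is not given for cyclic loess and the block. None passed without induced untreated replicate 1, induced Xrn1 replicates 1 or 3 or uninduced Xrn1 replicate 2, and leaving out induced replicate 2 left 3 (untreated) and 5 (Xrn1). Omitting an uninduced array left 6 (untreated replicate 2), 2 (untreated replicate 3) and 7 (Xrn1 replicate 3). By contrast 21 passed without induced untreated replicate 3, a fit whose share of all genes is not given here. That count is not read as particular to the members either.

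Induction of K294A alone left no member past the threshold. Without Xrn1, 0 of 43 passed in limma, against 0.0415% of all genes. In that comparison 16 members had an unadjusted p under 0.05, as did 5201 of all 16883 genes, and 0 passed with each gene's own spread. The median was -0.21, against -0.35 for all genes. The largest differences were -1.09 for IER2, -1.01 for ZFP36L1 and -1.0 for FOSB (adjusted p = 0.11 each). IER2, KLF10, ZFP36L1 and ID1 were lower on every induced untreated array than on any uninduced untreated one, and CXCL1 and IL6 were higher, against 17.4% and 5.82% of all genes. Without induced untreated replicate 3, 17 members passed as lower. The share of all genes in that fit is not given here, so the count is not read as particular to the members. After Xrn1, 0 of 43 passed in limma (0.0592% of all genes) and 0 with each gene's own spread. An unadjusted p under 0.05 was found for 2 members and for 1534 of all 16883 genes. The median was 0.30, against 0.28 for all genes, and 18 members were higher on all induced Xrn1 arrays, with ZFP36 (0.87) and JUNB (0.80) the largest, and none lower, against 31.3% and 3.13% of all genes.

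Probe sets are parts of the same genes and not replicates. Counted by probe set, 14 of 437 passed as higher and 58 as lower in uninduced cells, against 7.54% and 10.8% of 705699 probe sets. The 705699 include probe sets without a gene symbol, whereas all 437 carried a member's symbol. The shares in this paragraph are therefore not a matched background, and the counts are not read as particular to the members. In induced cells 41 were higher and 20 lower, against 6.89% and 5.52%. The average called 42 higher and 59 lower, against 11.7% and 11.4%. In the difference of the Xrn1 effects 0 passed in limma, with 91 at an unadjusted p under 0.05, against 0.00638% higher and 0.00269% lower. For induction 0 passed without Xrn1 (62 at an unadjusted p under 0.05, against 0% of all probe sets in either direction) and 0 with Xrn1 (31, against 0.00581% and 0.000142%).

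The genes upstream and downstream of the members were counted from lists chosen for their known roles. Of the kinases and factors that drive the immediate early response, 14 were tested, and 9 fell in uninduced cells and none rose, with a median of -1.07 (31.8% of all genes fell). In induced cells MAP2K2 rose (1.00), CREB1 fell (-1.67) and the median was -0.11 (21.6% of all genes rose and 17.8% fell), and the difference of the Xrn1 effects passed as positive for 7 of the 14 (20.6% of all genes). Averaged over both states, CREB1 (-1.76), MRTFB (-1.56), ELK3 (-1.29) and RPS6KA3 (-1.18), an ERK-activated kinase, fell, and SRF did not pass (0.24). Of 15 proteins that bind AU-rich and other instability elements, 12 fell in uninduced and 8 in induced cells (31.8% and 17.8% of all genes), where IGF2BP1 rose by 1.09. PUM2 (-2.51), CELF1 (-2.25), FXR1 (-1.70) and RC3H2 (-1.56) had the smallest p in the average, and ZC3H12A, an endonuclease that cuts inflammatory mRNAs, rose by 0.58. Of 8 NF-kB subunits and kinases, 2 fell in the average, CHUK (-1.88) and NFKB1 (-0.78), against 29.8% of all genes. The same 2 fell in induced cells (-1.37 and -1.03), where RELB, NFKB2 and IKBKG rose (0.85, 0.93 and 0.94). Of the 20 long-lived mRNAs, 20 fell in uninduced cells (median -1.98) and 17 in induced cells (median -1.20), against medians of -0.22 and 0.32 for the members and -0.27 and 0.10 for all genes. These mRNAs were also far more abundant, averaging 7.56 to 8.36 on untreated arrays against 3.57 to 4.50 for the expressed members. Whether level or half-life had a part in this was not tested. LDHA (-2.89), HSP90AB1 (-2.30), ENO1 (-2.06) and TUBB (-1.91) had the smallest p in the average.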

How the data were processed

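Cytoplasmic RNA was measured on 12 exon arrays. The authors deposited log2 values for each probe set on each array, which the submitters' processing notes credit to RMA and oligo. Their versions were not given in the sources used here. RMA makes array distributions alike, so changes are relative. Symbols came from the platform annotation; 357604 of 1411399 probe sets carried 1 symbol, 15322 several and 1038473 none. Both CM1X and CM2X are titled replicate 2; CM1X was counted as replicate 1.

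Probe sets with a mean above the median (2.04) were averaged per gene, with at least 3 needed. Genes were fitted with limma 3.58.1 in R 4.3.3 over 4 group means; 6 contrasts were adjusted by Benjamini-Hochberg at 0.05 over 16883 genes. An infinite prior gave every gene the common SD of 0.418 with 8 residual degrees of freedom, so standard errors were 0.34, 0.24 (average) and 0.48 (difference). Scripts were tested on simulated data. Silent members lay below the 95th percentile of olfactory receptor genes. Expressed members that passed in any contrast, up to 16 by smallest p, were given in every sample; of other lists the 4 genes with the smallest p were named, and others named outside this rule were chosen after their values were seen. Members and lists were chosen with earlier results of these data known. Alternatives are given in the closing section. Depth does not apply to arrays; 3 arrays per group limit precision.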

Additional observations from a re-analysis of the deposited data

Results flagged for a closer look

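The Xrn1 effect was tested for a difference between induced and uninduced cells, and 11 members passed this test (limma, Benjamini-Hochberg), each with a positive log2 difference, the effect in induced cells minus that in uninduced cells: JUNB at 1.73, ZFP36L1 at 1.68, ZFP36 at 1.55, EGR2 at 1.48, FOSB at 1.45, NFKBIA at 1.44, JUND at 1.44, IER2 at 1.44, DUSP5 at 1.41, SOCS3 at 1.39 and KLF10 at 1.34. Over all genes 20.6% passed as positive and 1.23% as negative. All genes had a median difference of 0.70, so these members lay 0.64 (KLF10) to 1.03 (JUNB) above it. With centred arrays most of these calls were lost, among them ZFP36, EGR2, FOSB, NFKBIA, JUND, IER2, DUSP5 and KLF10. For KLF10 the effects were -0.82 in induced and -2.16 in uninduced cells, so its fall was the smaller one with induction. The mean of the expressed members was 3.57 and 3.77 on induced untreated replicates 1 and 2, against 4.32 on replicate 3. The median of all genes tested was lower there too, at 3.08 and 3.19 against 3.68, so this shift was not particular to the members. Against replicate 3 alone, with the spread taken from the other groups, the 11 differences were 0.49 (FOSB) to 1.17 (ZFP36L1) and no member passed (2 at an unadjusted p under 0.05; over all genes 0.0296% passed as higher). No member passed either when 1 array was left out and that array was induced untreated replicate 1, induced Xrn1 replicate 1 or 3, or uninduced Xrn1 replicate 2.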

How the results depend on the processing

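The replicate number as a block changed none of the 45 member calls (7 for Xrn1 without induction, 15 with it, 12 averaged, 11 for the difference and 0 for induction in either RNA). With the CM number as a block, 7 members passed in the average and 0 in the difference; 2 of 12 samples correlated best with their own number, and the labels do not say whether a number marks 1 RNA. In uninduced cells 12 members passed with centred arrays, 13 with cyclic loess, 12 with array weights (a fit that stopped before converging) and 11 without induced untreated replicates 1 and 2 together, an alternative chosen after seeing the data that leaves 1 induced untreated array, assumed to vary like the other groups. In induced cells 1 passed with each gene's own spread and 0 without those replicates. In the average 19 passed with cyclic loess, where FOSL2 turned to 0.43 and ID1 to 0.13, and 5 with own spread. For induction without Xrn1, 15 passed as lower with array weights; with Xrn1, 2 passed with only the groups compared. In the difference 6 passed with the median of probe sets, 3 with the upper quartile filter, 6 with centred arrays, 20 with array weights and 0 with cyclic loess, own spread, without CM5 and CM5X (uninduced replicate 2) or without induced untreated replicates 1 and 2. Leaving out 1 array gave 4 to 10 calls in uninduced and 4 to 18 in induced cells, 7 to 16 in the average, 0 to 17 and 0 to 0 for induction without and with Xrn1, and 0 to 21 in the difference. With the highest olfactory receptor gene as the cut, 9 members counted as expressed in place of 35. The cause of these shifts was not tested. Shares of all genes are not given beside these counts, so the counts do not single out the members. Of the 45 calls, 38 held without the filter on dim probe sets, 24 with cyclic loess and 10 with own spread. Counts of probe sets stayed within 1.5 times.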
